A study of Mus musculus with 52 samples.

Results

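H3K27ac, the acetylation of histone H3 at lysine 27 that marks active promoters and enhancers, was compared in cold between brown adipose tissue (BAT) labelled TXNIP KO and BAT labelled TXNIP WT. The members were chosen by sample title and are 4 of the 52 samples of the series: 2 peak lists titled TXNIP KO and 2 titled TXNIP WT, all after 4 h of cold stress. The tissue was cross-linked for 12 min in 0.8% formaldehyde and analysed by chromatin immunoprecipitation sequencing (ChIP-seq). The same 2 genotypes without cold, at room temperature (RT), gave 4 further lists, and 6 lists of a separate wild-type H3K27ac cohort (3 in cold and 3 at RT) and lists of PPARG, PPARA, CEBPA, CEBPB, PGC1A and ERR1 were used for reference. The labels give no strain, age or sex, do not say whether Txnip was deleted in the whole animal or in fat cells only, and do not tell whether each replicate is its own mouse or a pool. The p-values thus rest on variation among these libraries, part of which may be technical.

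TXNIP, the thioredoxin-interacting protein, is an alpha-arrestin that binds thioredoxin and promotes the endocytosis of glucose transporters, so it limits glucose uptake. Its transcription is raised by glucose through the carbohydrate-sensing factors encoded by Mlxipl (ChREBP) and Mlxip (MondoA). BAT burns fatty acids and glucose to make heat through the uncoupling protein UCP1, and cold activates this through noradrenaline and beta-adrenergic receptors.

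The Txnip promoter, printed 5′ to 3′, is shown because these glucose-sensing factors are known to act through such paired elements. The 250 bases before its start site (chr3:96557707-96557956, plus strand, GRCm38.p6, RefSeq) contain, in capitals, 2 copies of CACGNG (N is any base) with 5 bases between them, searched on both strands.

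Txnip: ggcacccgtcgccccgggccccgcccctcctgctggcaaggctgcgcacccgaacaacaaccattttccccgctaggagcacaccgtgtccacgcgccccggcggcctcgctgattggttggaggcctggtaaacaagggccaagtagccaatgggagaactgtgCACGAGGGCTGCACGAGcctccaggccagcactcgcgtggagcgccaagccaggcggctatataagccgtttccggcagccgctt

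Of 32619 RefSeq promoter windows of the same length, 15 held this pair, a share of 0.046%. A match is a description of the letters and not a measured binding site. In all 4 cold lists an H3K27ac peak covered the whole of this window.

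The covered length of a locus was taken as the measured quantity: the bases under peaks within a protein-coding gene and its 10 kb flanks, in kb, scaled to the total covered length of the library. Txnip itself (chromosome 3, 96557957 to 96561857) lay in each of the 8 TXNIP lists under a single peak of 30.4 to 33.6 kb, and 100% of its gene body was covered in every one. The scaled length was 19.6 and 20.4 kb in the KO libraries in cold, and 22.6 and 21.02 kb in the WT libraries. Without scaling the order turned: 23.4 and 23.0 kb in KO against 21.97 and 22.5 kb in WT. Peak lists carry no read counts inside the gene, so they do not check the knockout label, and the deleted part of the gene is not given in the labels. The genotype difference at Txnip was -0.12 ± 0.10 on the log2 scale (limma, adjusted p = 0.627), and 0.06 without scaling. Its window of 23.9 kb was nearly full in all 4 cold lists, 1 of 8 such loci, so peak length there had little room to differ and the scaled value moves with the library totals.

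The KO lists were longer than the WT lists in cold. They held 54848 and 53668 peaks against 45218 and 47566, a ratio of 1.17, and covered 105.2 ± 4.1 Mb against 92.5 ± 6.3 Mb (SD, n = 2 each). The groups did not overlap in either measure, with an exact two-sided permutation p of 0.3333, the smallest that 2 libraries against 2 allow. At RT the order of the mean peak numbers was the other way, 39940 in KO and 41239 in WT, and the values overlapped. Read depth is unknown from peak lists. The bases shared by 2 lists were 72.3% of those covered by either for the KO pair, 73.8% for the WT pair and 66.8% to 73.6% for a KO list with a WT list, so the pairs within and between genotypes overlapped. KO replicate 1 stood apart at immune loci, as described below, and the brown fat genes Ucp1, Cidea and Prdm16 had peaks in all 4 lists, while 8 of 16 skeletal muscle genes, Acta1, Ckm and Myod1 among them, and 3 of 13 white adipocyte genes had none in any.

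No locus passed the test between genotypes in cold. Of 15117 loci covered in at least 2 of the 8 TXNIP libraries, 0 had an adjusted p under 0.05 (limma on log2 of scaled length plus 500 bp, 2 libraries per group; percent called 0%). At an unadjusted p under 0.05, limma counted 1061 higher in KO (7.02%) and 965 lower (6.38%). The median change over all loci was -0.03, and 0.14 without scaling, so that a list's position has to be read against that shift. With the 6 libraries of the other cohort in the fit, 67 loci were called (0.442%), 50 higher and 17 lower. Those 6 add no library to the KO or WT cold groups and change the fit through its spread and scaling. Their peaks are narrower, with median widths of 600 to 660 bp per list against 1132 to 1364 bp in the TXNIP lists. Without KO replicate 2, 73 were called, 65 higher and 8 lower. That fit rests on KO replicate 1 alone, which stood apart at immune loci and is assumed to vary like the other groups, and 4 loci were shared with the 67.

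The loci with the smallest p in each direction are named here, although they did not pass. Only loci whose KO and WT values in cold did not overlap were eligible. A locus whose window overlapped one already taken was left out. That the genotypes lie apart in cold at these loci thus follows from the choice and is not a result. Grm7, the gene of a metabotropic glutamate receptor, had 1.95 and 3.17 kb in the KO libraries in cold and no peak in the WT libraries. Its window spans 941.9 kb, so this difference lies in a small part of the locus. Slc10a1, a bile acid transporter gene, had 5.60 and 5.21 kb against 2.68 and 2.47 kb, a log2 difference of 0.94 ± 0.10 (limma, adjusted p = 0.107). Ank, which encodes a membrane protein for pyrophosphate and ATP export, had 39.9 and 37.6 kb against 19.3 and 19.4 kb, 0.98 ± 0.13 (adjusted p = 0.111). The KO values were close to double the WT values at these 2 transporter loci. Tiparp, the gene of an ADP-ribosyltransferase induced by the aryl hydrocarbon receptor, had 25.8 and 22.8 kb against 10.1 and 11.8 kb (adjusted p = 0.111). Syne3, which encodes the nuclear envelope protein nesprin-3, had 20.2 and 18.3 kb against 9.12 and 8.89 kb. Slc16a7, the gene of the lactate and pyruvate transporter MCT2, had 7.21 and 6.62 kb against 3.95 and 3.83 kb. Tiparp was shorter in all 4 RT libraries, at 4.21 to 5.65 kb. Upk3b, a gene of mesothelial cells, Atp10a, a phospholipid flippase gene, and Stt3b, which encodes a catalytic subunit of N-glycosylation, had log2 differences of 1.71, 1.06 and 0.84. Tlr13, the gene of a receptor for bacterial ribosomal RNA in myeloid cells, had 3.78 and 1.58 kb in KO, and no peak in the WT libraries or at RT in either genotype. Tlr13 was tested only because the 2 KO libraries in cold covered it. Its direction was thus fixed by the filter, and its p-value is no support.

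The loci lower in KO were led by Hmcn1, which encodes the extracellular matrix protein hemicentin-1. It had no peak in either KO library in cold and 1.07 and 1.42 kb in the WT libraries (limma, adjusted p = 0.0567). Pgpep1l likewise had no peak in KO, and 1.06 and 0.994 kb in WT (limma, adjusted p = 0.107). The WT lengths at these 2 loci were not far above the 500 bp added before the log. The Hmcn1 window spans 451.2 kb. Both loci were covered at RT in all 4 libraries, with less in KO: Hmcn1 had 3.10 and 3.09 kb in KO and 5.22 and 5.79 kb in WT. Efnb2, the gene of the arterial ligand ephrin-B2, had 10.0 and 10.5 kb in KO in cold against 17.4 and 18.5 kb, -0.78 ± 0.11 (adjusted p = 0.111). Epha4, an ephrin receptor gene, had 1.28 and 1.42 kb against 3.66 and 3.60 kb. Mmp15, the gene of a membrane-type matrix metalloproteinase, had 11.8 and 12.9 kb against 19.4 and 20.3 kb. Smco4, Efr3b and Lrrc3b had log2 differences of -0.55, -0.92 and -1.50.

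**Figure D1:**
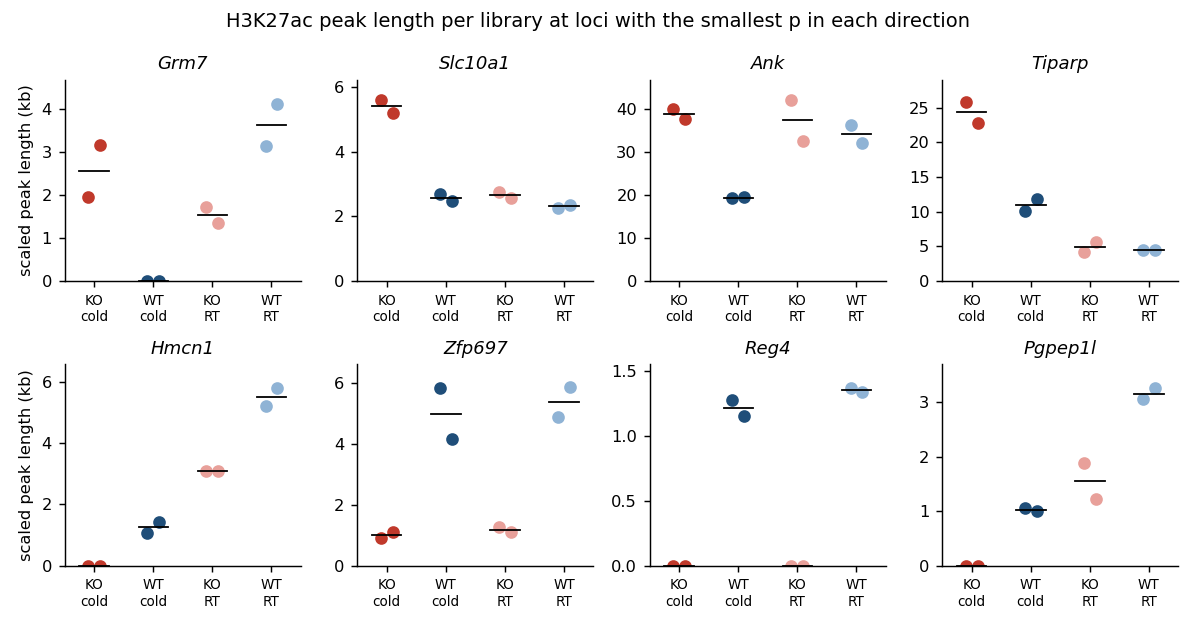
Scaled H3K27ac peak length in kb (vertical axis, from 0) at 8 of the leading loci, in the KO and WT libraries in cold and at RT (2 points per group, the line is their mean). The loci were chosen by small p among those whose genotypes do not overlap in cold. Reg4 has no peak in the 4 KO libraries, and Grm7 is higher in KO in cold but lower in KO at RT.

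The RT libraries share no library with the cold comparison but share its estimate of spread. Of the 1061 loci higher in KO in cold at an unadjusted p under 0.05, 33.6% had KO values above both WT values at RT and 12.6% below, and of the 965 lower, 33.5% were lower at RT and 13.6% higher. Over all loci, 22.3% were higher and 13.7% lower at RT. For loci higher in cold, 33.6% thus stood against 22.3% in the same direction. For loci lower in cold, 33.5% stood against 13.7%, a wider gap. In the opposite direction, 12.6% stood against 13.7% and 13.6% against 22.3%. Of the 10 leading loci lower in KO in cold, 9 had KO values below both WT values at RT too, and of the 10 higher in cold, 3 were higher and 3 lower at RT, which rests on 10 loci a side and was not tested. Grm7 was among those with the opposite order: 1.72 and 1.35 kb in KO against 3.13 and 4.13 kb in WT at RT. The test of the difference between the temperatures gave 3.60 for Grm7 (limma, adjusted p = 0.0895) and called 0 of 15117 loci (percent called 0%), with 1239 at an unadjusted p under 0.05 (8.2%), 650 more positive in cold (4.3%) and 589 more negative (3.9%). Over all loci, 234 (1.55%) had an unadjusted p under 0.05 in the same direction at both temperatures and 59 in opposite directions. The genotype differences in cold and at RT had a Pearson r of 0.20 and a Spearman rho of 0.17 across the 15117 loci, which are not independent replicates.

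The genotype difference at RT by itself called 0 of 15117 loci, with 1118 at an unadjusted p under 0.05 (7.4%, limma), 582 higher in KO (3.85%) and 536 lower (3.55%).

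On chromosome 3, close to Txnip, 2 loci were low in KO at both temperatures. Zfp697, a zinc finger gene 1.82 Mb away (98381962 to 98431951), had 0.909 and 1.10 kb in KO in cold and 5.83 and 4.16 kb in WT, a log2 difference of -1.86 ± 0.18 (limma, adjusted p = 0.069). At RT it had 1.26 and 1.11 kb against 4.89 and 5.87 kb, a difference of -1.80. Reg4, which encodes a secreted lectin of the gut (98222138 to 98236748), had no peak in any of the 4 KO libraries, 1.28 and 1.15 kb in WT in cold and 1.37 and 1.34 kb in WT at RT. At RT neither locus overlapped between genotypes, which in cold was a condition of their choice. The test of the temperature difference gave -0.06 for Zfp697 and 0.11 for Reg4. The WT lengths at Reg4 were small beside its window of 34.6 kb and not far above the 500 bp added before the log. On the other side of Txnip, Ctss, the gene of the macrophage protease cathepsin S, had 8.99 and 1.77 kb in KO against 0.523 and 1.19 kb, and Fcgr1, an Fc receptor gene of macrophages, 6.74 and 5.43 kb against 0.866 and 2.06 kb. Both were also higher in KO at RT, by 1.79 and 0.95. Cers2, a ceramide synthase gene, differed by 0.31 in cold and 0.29 at RT. In all, 6 of 90 loci within 2 Mb of Txnip (6.67%) had an unadjusted p under 0.05 in the same direction at both temperatures, against 228 of 15027 elsewhere (1.52%). The 2 Mb window was chosen after these values were seen, and a peak between adjacent genes counts for both. The labels do not give the strain around the knockout allele, and its part in these values was not tested.

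**Figure D2:**
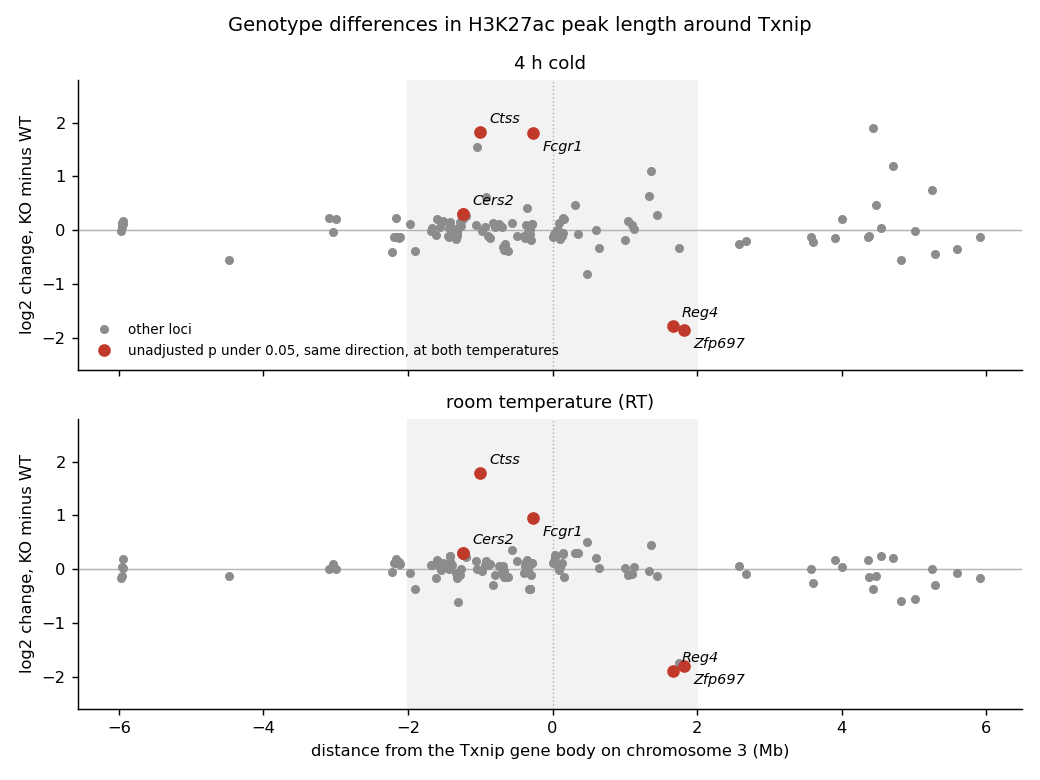
Log2 difference in scaled H3K27ac peak length, KO minus WT (vertical axis), against the distance of each locus from the Txnip gene body in Mb (horizontal axis), in cold (top) and at RT (bottom). Each point is a locus, red points have an unadjusted p under 0.05 in the same direction at both temperatures, and the grey band is 2 Mb to each side. Zfp697 and Reg4 lie near -1.8 in both panels.

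Genes of de novo lipogenesis, by which fatty acids are made from glucose carbon, had longer H3K27ac coverage in KO in cold. After scaling, 13 of 20 loci had both KO values above both WT values and 2 had both below, against 19.1% and 28.5% of all loci. Their median log2 difference was 0.18, against -0.03 over all loci, and 0 of 20 passed the adjusted threshold. At an unadjusted p under 0.05 (limma), 9 were higher and 0 lower, against 7.02% and 6.38% of all loci. Without scaling the counts were 15 and 0, against 41.3% and 8.04% of all loci, with a median of 0.37 against 0.14. Without any 1 of the 4 cold libraries, the higher count was between 13 and 17, where 30.6% to 34.3% of all loci were higher. At RT, 10 were higher and 1 lower (22.3% and 13.7% of all loci), with a median of 0.22 against 0.04 over all loci.

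Fasn, the fatty acid synthase gene, had 15.3 and 16.7 kb in KO and 8.54 and 13.3 kb in WT in cold, 0.56 ± 0.23 (limma, adjusted p = 0.358). Srebf1, the gene of the lipogenic factor SREBP-1, had 21.5 and 20.2 kb against 12.7 and 17.1 kb. Mlxipl, which encodes the glucose-sensing factor ChREBP, had 19.3 and 20.6 kb against 14.9 and 15.8 kb. In these 3 genes both WT values lay below both KO values, although the WT replicates of Fasn and Srebf1 were far apart. Pnpla3, a target of SREBP-1 that encodes a lipid droplet protein, had 19.6 and 20.6 kb against 15.3 and 13.7 kb, 0.46 ± 0.14 (adjusted p = 0.256). Acaca, the acetyl-CoA carboxylase gene of the lipogenic pathway, had 50.6 and 53.6 kb against 34.7 and 45.6 kb. Acly, which makes cytosolic acetyl-CoA from citrate, Acss2, which makes it from acetate, Scd1, which desaturates fatty acids, and Insig1, which retains SREBP in the endoplasmic reticulum, differed by 0.29, 0.34, 0.36 and 0.40. Acacb, the carboxylase that restrains fatty acid oxidation, was the other way, 41.1 and 42.2 kb against 51.1 and 45.1 kb, and its values overlapped without scaling. Thrsp, Pgd and Tkt had both KO values above the WT values, by 0.18, 0.19 and 0.10, and in the gene body alone Thrsp was at -0.17. At RT, Fasn had 32.2 and 25.6 kb in KO against 22.7 and 16.9 kb in WT, a difference of 0.54. Acss2 and Insig1 were at -0.21 and -0.12 at RT, so the list did not keep 1 order throughout.

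Endothelial genes had shorter coverage in KO in cold after scaling. Both KO values lay below both WT values at 13 of 15 loci and above at 1, and the median was -0.22, against 28.5%, 19.1% and -0.03 for all loci. No locus passed the adjusted threshold. At an unadjusted p under 0.05 (limma), 6 were lower and 0 higher, against 6.38% and 7.02% of all loci. Without scaling, 6 were lower and 2 higher (8.04% and 41.3% of all loci), with a median of -0.03 against 0.14 over all loci. At RT the median was 0.03, with 4 lower and 2 higher (13.7% and 22.3% of all loci). Erg, an endothelial transcription factor gene, had 25.8 and 29.6 kb in KO and 37.8 and 37.2 kb in WT, -0.43 ± 0.08 (limma, adjusted p = 0.149). Emcn, the gene of the capillary sialomucin endomucin, had 2.90 and 3.32 kb against 5.06 and 5.16 kb. Flt1, the gene of VEGF receptor 1, had 54.7 and 58.4 kb against 73.5 and 67.6 kb. These 3 were below the WT values without scaling too. Pecam1, Eng and Kdr, which encode a junction molecule, a TGF-beta co-receptor and VEGF receptor 2, differed by -0.26, -0.31 and -0.22. Vwf, the von Willebrand factor gene, was the locus with the opposite order, 1.88 and 1.69 kb against 1.55 and 1.64 kb. Summed over the 15 genes, scaled coverage was 333.8 and 360.1 kb in KO and 427.2 and 404.1 kb in WT. In bulk tissue, fewer cells of a type and less of the mark per cell cannot be told apart.

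Macrophage and lymphocyte genes had longer coverage in KO in cold, most of all in replicate 1. Of 19 genes in the table, 12 were tested, 6 had both KO values above both WT values and 0 below (19.1% and 28.5% of all loci), and the median was 0.66, against -0.03 over all loci. Summed over the 19 genes, scaled coverage was 101.6 kb in KO replicate 1, 56.3 kb in KO replicate 2, and 45.1 and 50.7 kb in WT, with 35.9 to 52.7 kb in the RT libraries. Without KO replicate 1 the median was 0.27, with 6 higher and 1 lower (31.1% and 41% of all loci). Without KO replicate 2 the median was 1.04 and 12 of 12 were higher (34.3% of all loci).

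Itgam, an integrin gene of myeloid cells, had 3.35 and 1.22 kb in KO, and 0 and 0.58 kb in WT. Cd68, the gene of a macrophage lysosomal protein, had 13.8 and 14.4 kb against 10.9 and 11.3 kb, 0.33 ± 0.10 (limma, adjusted p = 0.243), but was at -0.15 in the gene body alone. Nkg7, a gene of cytotoxic lymphocytes, had 10.1 and 7.39 kb against 6.40 and 5.41 kb. For Cd68 the KO replicates were alike, whereas for the genes that follow they were not. Ptprc, which encodes CD45 of all white blood cells, had 18.8 kb in KO replicate 1, 2.29 kb in replicate 2 and 1.06 and 2.95 kb in WT. Lyz2, a myeloid lysozyme gene, had 7.35 kb in KO replicate 1, 1.61 kb in replicate 2 and 0.353 and 2.02 kb in WT. Bcl11b, a T cell transcription factor gene, had 19.9 kb in KO replicate 1, none in replicate 2, and 0 and 0.392 kb in WT. The T cell genes Cd28, Cd5 and Zap70 had 8.42, 6.93 and 4.93 kb in KO replicate 1, at most 0.588 kb in replicate 2 and none in WT. Cx3cr1 and Cd3e were covered in KO replicate 1 alone among the cold lists, and Cd8a, Ms4a1, S100a8 and S100a9 in none. The part of these cells in the genotype differences at other loci was not tested.

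**Figure D3:**
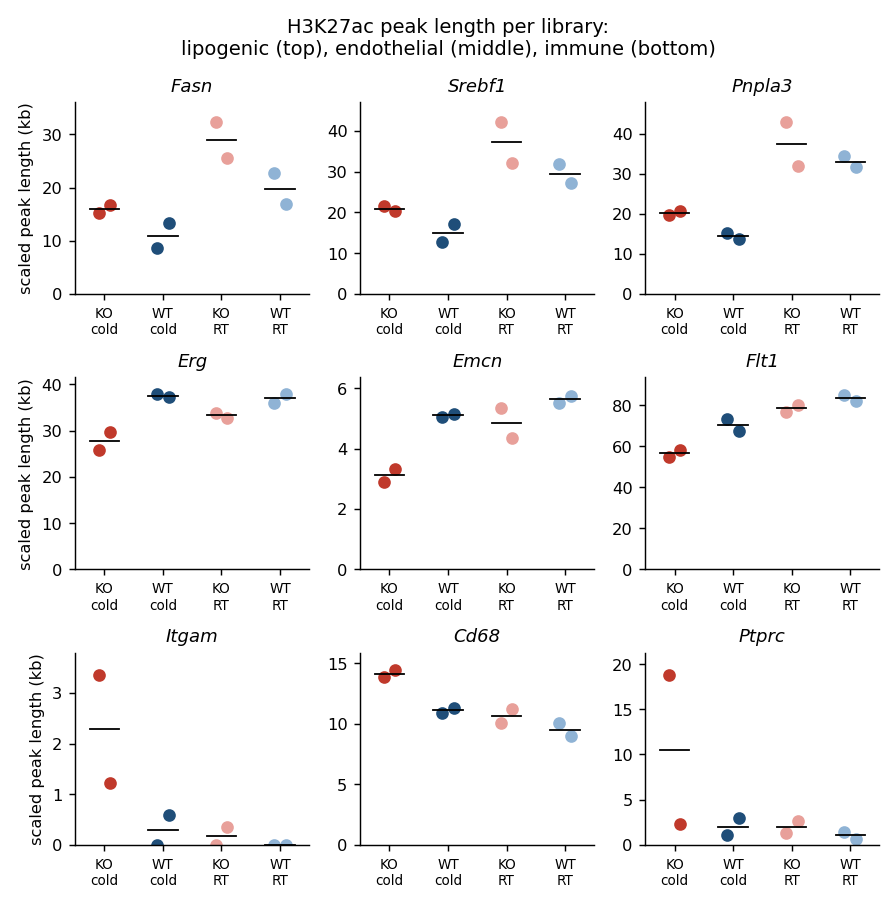
Scaled H3K27ac peak length in kb (vertical axis, from 0) per library at 3 lipogenic, 3 endothelial and 3 immune loci, by genotype and temperature (2 points per group, the line is their mean). KO points in cold lie above WT points for Fasn, Srebf1 and Pnpla3 and below for Erg, Emcn and Flt1, and Ptprc is high in KO replicate 1 alone.

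The genes of thermogenesis lay near the share of all loci. Of 25 loci, 3 had both KO values above both WT values and 6 below (19.1% and 28.5% of all loci), with a median of -0.05, and 0.13 without scaling, which is close to the shift of all loci. Ucp1 had 15.2 and 14.4 kb in KO and 20.4 and 13.4 kb in WT (-0.16 ± 0.19, limma, adjusted p = 0.722; 0.02 without scaling). Ppargc1a, the gene of the coactivator PGC1A, had 46.2 and 31.3 kb against 40.7 and 34.9 kb, and Cidea, a lipid droplet gene of brown fat, 21.7 and 20.5 kb against 24.8 and 20.4 kb. The genotypes overlapped at all 3. Dio2, which activates thyroid hormone, had 6.63 and 5.58 kb against 8.99 and 8.18 kb, -0.46 ± 0.20 (adjusted p = 0.387). Elovl3, a cold-responsive fatty acid elongase gene, had 1.41 and 2.05 kb against 6.14 and 3.84 kb in cold (adjusted p = 0.414), and no peak in the KO libraries at RT against 5.66 and 0.922 kb in WT. Both genes had KO values below WT values in cold, but the replicates of Elovl3 lay far apart. Prdm16, the gene of a brown fat transcription factor, had 78.6 and 68.6 kb against 64.5 and 63.4 kb. Gatm, the first enzyme of creatine synthesis, had 0.818 and 0.491 kb in KO, and no peak in the WT libraries or at RT. Like Tlr13, it was tested only because the 2 KO libraries in cold covered it, which fixed its direction. Adrb3, the gene of the adrenergic receptor of fat cells, had 14.7 and 13.3 kb against 13.4 and 14.5 kb, and Pparg, the gene of the main adipocyte transcription factor, differed by -0.12, and by 0.07 without scaling.

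Among the alpha-arrestin and thioredoxin genes, 7 of 17 loci were higher in KO without overlap and 3 lower (19.1% and 28.5% of all loci), with a median of -0.01. Without scaling, 11 were higher and 1 lower, against 41.3% and 8.04% of all loci. Arrdc4, the closest relative of Txnip in glucose sensing, had 4.32 and 4.46 kb against 3.14 and 4.14 kb (adjusted p = 0.578), and Arrdc3 13.3 and 12.2 kb against 16.4 and 12.2 kb. Arrdc2 had 4.56 and 4.92 kb against 6.34 and 6.07 kb, -0.36 ± 0.10 (limma, adjusted p = 0.217). Of the peroxide-reducing peroxiredoxins, Prdx5 had 8.89 and 10.4 kb against 7.104 and 5.66 kb, 0.57 ± 0.19 (adjusted p = 0.284), and Prdx1 10.4 and 10.7 kb against 9.01 and 8.997 kb. Prdx1 was higher at RT as well, by 0.31, and Prdx5 was not, at -0.07. Txndc5, a thioredoxin-domain protein gene, and Txnrd1, the cytosolic thioredoxin reductase gene, differed by 0.33 and 0.54.

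Glucose uptake and glycolysis genes had 3 of 26 loci higher and 6 lower, with a median of -0.03, near or below the 19.1% and 28.5% of all loci. Slc2a1 and Slc2a4, which encode the glucose transporters GLUT1 and GLUT4 that TXNIP acts on, did not pass: Slc2a1 had 4.95 and 1.82 kb against 2.39 and 3.39 kb, and Slc2a4 13.3 and 12.4 kb against 15.7 and 14.2 kb. Insulin and growth factor signalling genes had 8 of 23 loci higher and 7 lower (19.1% and 28.5% of all loci), with a median of 0.12 and, at equal list lengths, -0.01. Pik3cb, a catalytic subunit gene of PI3 kinase, had 6.02 and 5.02 kb in KO and 8.62 and 10.9 kb in WT, -0.76 ± 0.14 (limma, adjusted p = 0.140). Irs1, an insulin receptor substrate gene, had 30.8 and 26.5 kb against 17.2 and 24.0 kb, and Tbc1d4, the Rab GTPase-activating protein that holds GLUT4 inside cells, 27.4 and 27.4 kb against 19.6 and 23.6 kb. Igf1r had 11.3 and 10.96 kb against 15.6 and 14.2 kb, and was lower in KO at RT too, by -0.46. None of these 4 loci overlapped between genotypes, and both directions occurred within the pathway.

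Genes of lipid uptake and triglyceride synthesis had 11 of 19 loci lower and 3 higher (28.5% and 19.1% of all loci), with a median of -0.16. Without scaling, 3 were lower and 5 higher (8.04% and 41.3% of all loci), with a median of 0.02. Lpl, the lipoprotein lipase gene, had 28.5 and 28.5 kb in KO and 36.5 and 33.1 kb in WT, -0.28 ± 0.07 (limma, adjusted p = 0.216), and stayed below without scaling. Its endothelial carrier gene Gpihbp1 and the fatty acid transport gene Slc27a2 differed by -0.22 and -0.25, and Slc27a1, of the same family, by 0.31. Fatty acid oxidation genes had 8 of 24 loci higher and 2 lower (19.1% and 28.5% of all loci), with a median of 0.10. Etfa, which encodes a subunit of the electron transfer flavoprotein, and Slc25a20, the mitochondrial carnitine-acylcarnitine carrier gene, differed by 0.95 and 0.45. Hmox1, the haem oxygenase gene of oxidative stress defence, had 7.46 and 9.30 kb against 11.5 and 11.5 kb, -0.44 ± 0.12 (adjusted p = 0.218). For lipolysis, adipocyte identity, and heat shock and unfolded protein response genes, the scaled medians lay between -0.12 and -0.08 and the unscaled ones between 0.06 and 0.08, so their sign depends on the scaling.

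**Figure D4:**
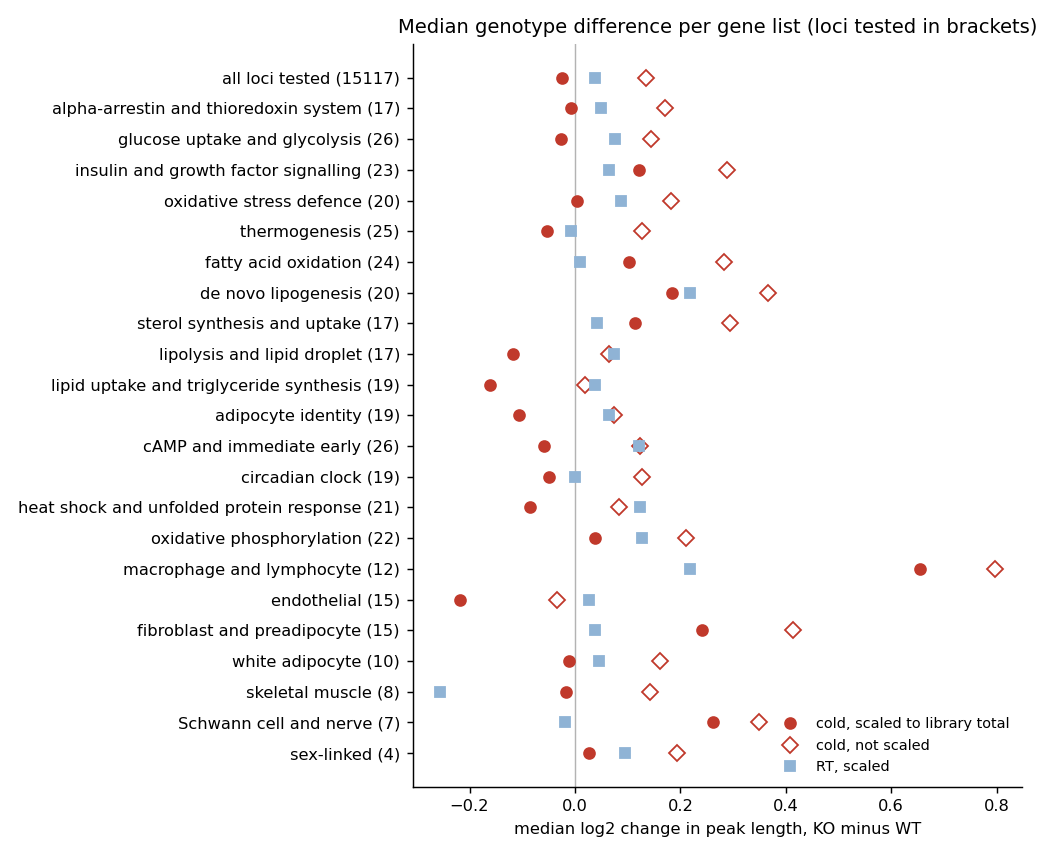
Median log2 difference in H3K27ac peak length, KO minus WT (horizontal axis), for each gene list and for all loci tested (number of loci in brackets), in cold after scaling to the library total, in cold without scaling, and at RT after scaling. De novo lipogenesis lies right of all loci in each of the 3, and endothelial genes lie left of all loci in cold.

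Regions were then compared as merged intervals of the 4 cold lists. Of 63424 regions, 31024 (48.9%) were held by all 4 lists, 3413 (5.38%) by both KO lists and no WT list, and 707 (1.11%) by both WT lists and no KO list. Single lists alone held 8321 (KO replicate 1), 5373 (KO replicate 2), 2212 (WT replicate 1) and 2875 (WT replicate 2). With lists cut to the same length, the counts were 1753 for KO and 1255 for WT. KO-only regions were 789 bp wide in the median and WT-only regions 740 bp, against 2351 bp for the regions of all 4 lists. The median deposited fold enrichment, which is the authors' value, was 3.24, 3.19 and 8.39. Of the KO-only regions 3.69% lay within 1 kb of a start site, of the WT-only regions 4.55%, and of those held by all lists 25.1%.

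The KO-only and WT-only regions differed in where else they were held. In the TXNIP RT lists, KO-only regions were held at 16.2% and 24.7% (KO) and 23.1% and 17.3% (WT), so the genotypes overlapped. WT-only regions were held there at 27.7% and 39.7% (KO) and 50.6% and 41.9% (WT). For the 28280 regions outside these sets and the set of all 4 lists, the shares were 12.8%, 21.3%, 22.7% and 17.2% in the same order. In the 3 cold lists of the other wild-type cohort, KO-only regions were held at 4.92%, 2.14% and 5.27%, and WT-only regions at 24.3%, 28.7% and 45.5%. The peaks of that cohort are narrower, as given above, so its shares are not directly comparable with those of the TXNIP lists. In the RT lists of that cohort, KO-only regions were held at 25.8%, 16.1% and 13.4%, and WT-only regions at 30.4%, 23.6% and 34.1%. The shares of KO-only regions were larger in its RT than in its cold lists without overlap, and so were those of the 28280 regions outside all 3 sets, at 5.71% to 10.9% in cold and 11.6% to 18.2% at RT, so this order was not particular to KO-only regions. PPARG sites (held by at least 2 lists) met 14.9% of KO-only regions with the cold lists and 25.9% with the RT lists. For WT-only regions the shares were 18.5% and 14.4%, and for regions of all 4 lists 65.4% and 67.7%. For the regions outside the sets they were 11.1% and 15.6%, so the order seen in KO-only regions was not particular to them. In none of the other 10 H3K27ac lists were 1638 (48%) of the KO-only regions, 153 (21.6%) of the WT-only regions and 56.8% of the regions outside the sets. These shares are descriptions, since the sets were not tested.

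**Figure D5:**
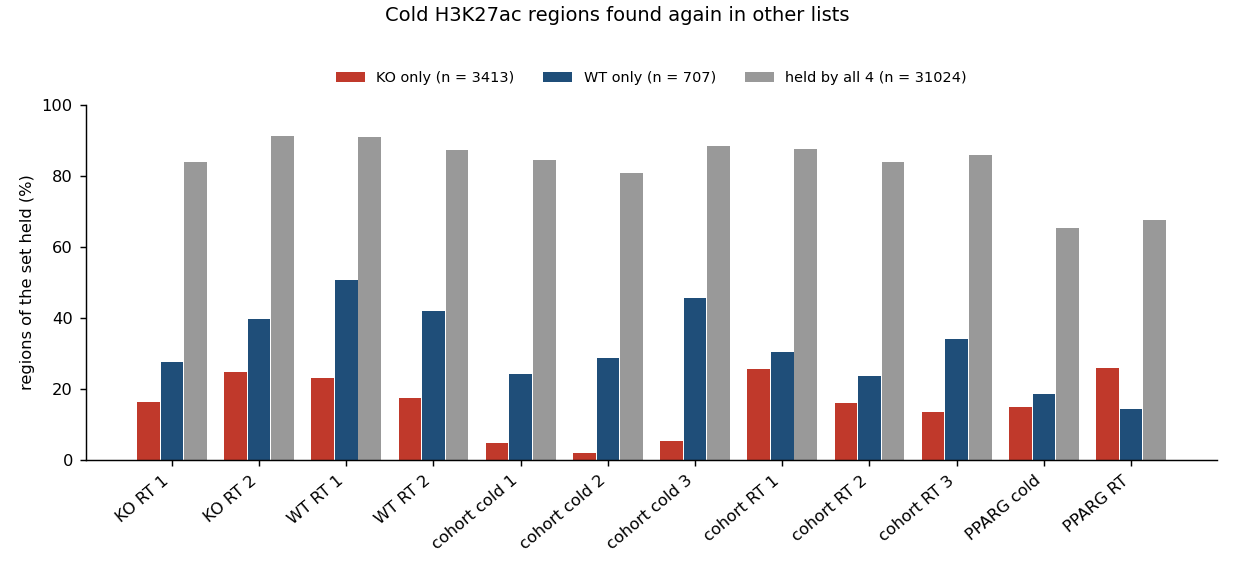
Share of regions (vertical axis, %) held by each further H3K27ac list and by PPARG sites, for regions of both KO and no WT cold list, of both WT and no KO cold list, and of all 4 cold lists. KO-only regions are at 2.14% to 5.27% in the cohort cold lists and at 13.4% to 25.8% in the cohort RT lists.

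The strongest WT-only region lay inside Zfp697 (chromosome 3, 98410709 to 98412439), with a deposited fold of 20.01 and 21.7 in the WT lists and no peak in the KO lists. It was held by both WT lists and no KO list at RT, by all 6 lists of the other cohort, and by PPARG, PPARA, CEBPA and CEBPB sites. The next WT-only region, in Poln, had a mean fold of 6.25. A further region in Zfp697 (98407095 to 98408742) and 1 near Reg4 (98245509 to 98247256) were also held by all 4 WT lists and no KO list. Across the genome 38 regions had this pattern, 3 of them within 2 Mb of Txnip (7.89%), where 0.348% of all regions lie. These 3 are the regions just named, and the one near Reg4 lay 8.76 kb outside its gene body. They fall in the locus windows of Zfp697 and Reg4, so this share is not separate from the locus values above. The 2 Mb window was chosen after those values were seen.

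In the opposite direction, 65 regions were held by all 4 KO lists and no TXNIP WT list, 2 of them within 2 Mb of Txnip. They lay beside Plekho1 (95981125 to 95983691, fold 9.17 and 6.07) and beside the histone gene H2bc18 (96273496 to 96275482, fold 9.85 and 5.29). Neither was held by a list of the other cohort. The region beside H2bc18 also lies in the 10 kb flank of Fcgr1, so it is part of the Fcgr1 coverage given above. The H2bc18 locus as a whole differed by 0.11 in cold (limma, unadjusted p = 0.308). The KO-only region of highest mean fold, 9.15, lay on chromosome 6 (101532115 to 101532977), 154.2 kb from the nearest protein-coding gene body, Pdzrn3, and was held by all 3 cold lists of the other cohort. The next, 7.89, lay in the muscle troponin gene Tnni1 on chromosome 1 (135793567 to 135795244). The gene bodies with most KO-only regions were Prkag2, a regulatory subunit gene of AMP-activated kinase, with 9, and Ank and the thyroid hormone receptor gene Thrb, with 8 each. Ahcyl2, which encodes a relative of S-adenosylhomocysteine hydrolase, held 7, and its locus had 15.3 and 18.1 kb in KO and 2.33 and 5.25 kb in WT. These genes are long: 243.5 kb for Prkag2, 128.2 kb for Ank, 380.9 kb for Thrb and 143.9 kb for Ahcyl2.

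At promoters, KO-only regions covered at least 150 bp of the 300-base start-site window of 53 protein-coding genes, and WT-only regions of 12. The sets differ in size, with 3413 and 707 regions, of which 3.69% and 4.55% lay within 1 kb of a start site. The 2 counts are therefore no excess at promoters in KO. Among the 53, named after their values were seen, were Oas1a and Slfn1, which are induced by interferon, and the cytokine gene Il6. Not all of the 53 loci were longer in KO: Cd247 and Plekhn1 differed by -0.16 and -0.19. Oas1a had 1.34 and 0.485 kb in KO, Slfn1 3.32 and 0.442 kb and Il6 0.818 and 0.508 kb, and none of the 3 had a peak in WT in cold. KO replicate 1 had more than 2 times the coverage of replicate 2 at 18 of the 53 loci and the reverse held at 3. Among the 12 WT-only promoters were those of Chil3, a gene of alternatively activated macrophages, with 1.18 and 1.44 kb in KO and 4.11 and 2.56 kb in WT, and of Stmnd1, with 0.407 and 0.670 kb against 1.35 and 1.67 kb. The 250 bases before the start sites of 5 of these genes are shown because a set region covered each of them whole. Capitals mark matches, on either strand, to GAAA repeated after any 2 bases, the core of the interferon-stimulated response element, or to TGANTCA, the AP-1 motif.

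Oas1a: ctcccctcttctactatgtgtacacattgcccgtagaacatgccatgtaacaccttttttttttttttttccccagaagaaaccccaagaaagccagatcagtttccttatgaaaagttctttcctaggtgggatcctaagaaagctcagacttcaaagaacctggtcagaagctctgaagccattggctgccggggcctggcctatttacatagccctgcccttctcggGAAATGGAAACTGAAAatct
Il6: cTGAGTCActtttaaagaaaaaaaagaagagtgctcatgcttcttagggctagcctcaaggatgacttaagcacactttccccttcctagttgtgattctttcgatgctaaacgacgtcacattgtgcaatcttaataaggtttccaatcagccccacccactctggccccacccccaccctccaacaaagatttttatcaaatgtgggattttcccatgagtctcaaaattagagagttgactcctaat
Slfn1: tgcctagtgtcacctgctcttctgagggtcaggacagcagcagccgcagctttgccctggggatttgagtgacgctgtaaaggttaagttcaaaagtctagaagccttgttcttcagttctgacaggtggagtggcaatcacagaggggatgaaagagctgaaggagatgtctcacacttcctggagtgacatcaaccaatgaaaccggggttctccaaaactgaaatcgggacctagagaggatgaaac
Chil3: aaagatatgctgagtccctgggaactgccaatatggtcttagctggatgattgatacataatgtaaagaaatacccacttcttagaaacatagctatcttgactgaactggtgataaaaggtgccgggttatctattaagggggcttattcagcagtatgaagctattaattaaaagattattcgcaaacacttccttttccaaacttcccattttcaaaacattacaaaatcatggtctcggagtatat
Stmnd1: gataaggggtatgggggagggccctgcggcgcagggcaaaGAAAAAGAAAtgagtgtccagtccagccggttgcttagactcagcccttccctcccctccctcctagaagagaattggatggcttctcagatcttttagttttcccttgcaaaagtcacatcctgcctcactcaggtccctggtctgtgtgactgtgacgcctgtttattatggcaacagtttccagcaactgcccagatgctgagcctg

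Their positions in GRCm38.p6 (RefSeq) are chr5:120907526-120907775, minus strand, for Oas1a, of which the last 19 bases lie inside the annotated gene span, chr5:30012864-30013113, plus strand, for Il6, chr11:83116570-83116819, plus strand, for Slfn1, chr3:106167565-106167814, minus strand, for Chil3, and chr13:46273471-46273720, plus strand, for Stmnd1. Oas1a held 2 overlapping matches to the interferon core, Stmnd1 held 1, and Il6 held 1 AP-1 match. Of all 32619 promoter windows, 2.99% held the interferon core and 6.78% the AP-1 motif. Slfn1 and Chil3 held neither, which says only that these letters are not in this window.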

How the data were processed

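The deposited files are narrowPeak lists, 1 per ChIP library. Peaks refer to build GRCm38.p6 and the tool names recorded are MACS2 2.2.7.1, BWA 0.7.17, Trim Galore 0.6.0, deepTools 3.4.3 and SAMtools, per the submitters' processing notes. Each deposited peak has a fold enrichment over control (a ratio) and p and q values as −log10, which the authors' peak caller gave; whether lists were made against inputs, and how, is not given in the sources used here. Peak lists hold no read counts. The 17 input samples were not used.

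Bases under peaks were summed per locus, a protein-coding RefSeq gene and its 10 kb flanks, for the X and autosomes 1 to 19. They were scaled to the library total, 500 bp was added, and log2 values of the 8 TXNIP libraries were fitted in R 4.3.3 by limma 3.58.1, using a trended prior, two-sided p-values and Benjamini-Hochberg adjustment over all loci. Of 21631 loci, 15117 covered in at least 2 libraries were tested. Values that do not overlap are those where both libraries of 1 genotype exceed both of the other. Regions are merged intervals of the 4 cold lists, held by a list with 1 bp or more. Python 3.11.15 (pandas 2.3.3, scipy 1.17.1) was used for the rest, and the fit was tested on simulated data.

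Since none was called, the leading loci are the 10 of smallest p in each direction whose cold values did not overlap between genotypes. A locus whose window overlapped one already taken was left out. A list of key genes was named as well, and other genes were named after their values were seen. Members and lists were chosen with earlier results of these data known. Shared replicate numbers in the labels were not taken as pairs: with only 2 pairs, the correlation of same-numbered deviations between KO and WT in cold was -0.03. Between other groups it ran from -0.20 (KO cold with KO RT) to 0.15 (WT cold with KO RT). Alternatives covered the scaling, list length, stricter peaks, gene body alone, the length added, the filter, further libraries and each library left out.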

Additional observations from a re-analysis of the deposited data

Results flagged for a closer look

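Some regions had the opposite genotype pattern in cold and at RT: 66 were held by both KO and no WT list in cold but by both WT and no KO list at RT, and 6 by both WT and no KO list in cold but by both KO and no WT list at RT. By comparison, 65 were held by both KO and no WT list at both temperatures, and 38 by both WT and no KO list at both. The difference between the temperatures was not tested for single regions.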

How the results depend on the processing

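The count of loci called in cold, 0 by limma, was 14 with lists of equal length, 2 in the gene body alone, 3 with 100 bp added, 1 with loci covered in at least 4 libraries, 67 with all 14 H3K27ac libraries, and 0 to 73 without 1 library. The interaction called 1 locus with 100 bp added, 5 with all 14 libraries, and 0 to 1 without 1 library. With replicate number as a block, limma called 0 loci in cold and 0 for the interaction. KO-only regions numbered 1753 and WT-only regions 1255 at equal list length; WT-only regions were 1133 with overlap of at least 50% of the region. Without 1 library there were 4759 to 12336 KO-only and 1466 to 3785 WT-only regions, as 1 list fewer has to hold or lack a region.

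Without scaling, the log2 difference turned to 0.059 at Txnip, 0.038 at Arrdc3, 0.021 at Ucp1, 0.093 at Cidea, 0.18 at Adrb3, 0.071 at Pparg, 0.073 at Cebpa, 0.045 at Cebpb and 0.12 at Irs2. With equal list length it turned to 0.020 at Arrdc3, 0.055 at Adrb3 and -0.18 at Fgf21, and in the gene body alone to 0.17 at Ucp1, 0.021 at Irs2, -0.15 at Cd68 and -0.17 at Thrsp. Without 1 library, values ran from -0.068 to 0.067 at Adrb3, -0.35 to 0.063 at Arrdc3, -0.41 to 4.91 at Bcl11b, -0.22 to 0.23 at Cfd, -0.23 to 0.049 at Cidea, -0.16 to 0.54 at Fgf21, -0.39 to 0.27 at Irs2, -0.13 to 0.36 at Ppara, -0.26 to 0.29 at Ppargc1a, -0.13 to 0.15 at Ppargc1b, -0.53 to 0.70 at Slc2a1 and -0.45 to 0.13 at Ucp1. The cause was not tested. None of the 106 named loci passed in the main fit, so staying on the same side of the threshold means not passing. Of 1568 refits, 1498 kept the direction and did not pass. Another 36 newly passed, counted over settings that include fits with 1 library in a group. The direction turned in 18 refits without 1 library (12 loci) and in 16 others (12 loci). Windows covered nearly whole limit what peak length can show: all 8 loci with at least 90% of the window covered in the 4 cold lists were lower in KO after scaling.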
